A study of Nannochloropsis oceanica with 6 samples.

Results

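The plastid genes for transcription and translation in Nannochloropsis oceanica IMET1, a unicellular marine alga, were described in polyadenylated RNA of NoPAC4 knockout cells and wild-type (WT) cells. The set comprised every plastid gene ID for a protein of the large ribosomal subunit (rpl, 25 genes), the small ribosomal subunit (rps, 18 genes) or the RNA polymerase (rpo, 4 genes), together with tufA for elongation factor Tu. These 48 genes were chosen by name, among 125 plastid genes and 10493 genes in all. The libraries came from NoPAC4 knockout line 1 (2 libraries), NoPAC4 knockout line 2 (2 libraries) and WT (2 libraries), all of strain IMET1 and all grown for 5 days in continuous low light (photon flux 50 µmol per m2 and second). The labels give 23 °C in one text and 25 °C in another. They do not say how the lines were made, whether a line is a single clone, or whether replicates were separate cultures, and p-values then describe no more than the spread among the libraries. The knocked-out gene itself was not analysed here, since nuclear gene IDs are not paired with names.

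Plastids keep a small genome and a bacterial type of gene expression. Their RNA polymerase core is built from the products of rpoA (the alpha subunit, on which the enzyme assembles), rpoB (the beta subunit) and rpoC1 and rpoC2 (the split beta-prime subunit), and it reads plastid promoters with sigma factors imported from the cytosol. Their ribosome resembles that of bacteria, with plastid-encoded proteins in both subunits, and elongation factor Tu delivers charged transfer RNAs to it. Plastid messages mostly lack the stable poly(A) tails of nuclear messages, and libraries of polyadenylated RNA are not made to capture them.

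Each library held 13956855 to 16311248 reads, of which 1380 to 2430 were from plastid genes and 336 to 500 from the 48 genes. The spread between replicates was widest in WT, with an SD of the log2 ratio between replicates of 0.28 in line 1, 0.31 in line 2 and 0.51 in WT over all tested genes. Line 1 replicate 2 stood apart in psbA, for the D1 protein of photosystem II, with 1227 reads against 330 to 604 in the other libraries. Values below are CPM (counts scaled to the effective library size), and shares of plastid reads are given with and without psbA. In bulk RNA, fewer cells with a transcript and less of it per cell cannot be told apart.

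The reads were spread very unevenly over the set. The 6 libraries together held 2460 reads of the 48 genes, and tufA alone held 1670 of them (67.9%). Reads were found for 38 genes, whereas 10 genes, 7 rpl and 3 rps, had 0 reads in all libraries. A count of 0 allows up to 3 reads, which is 0.184 to 0.215 CPM in a single library, so absence of these transcripts is not shown. In single libraries, 23 and 22 of the 48 genes were read for line 1, 21 and 22 for line 2, and 30 and 24 for WT. Just 6 genes passed the low-count filter and were tested, namely tufA, rpoA, rpoC2, rps2, rps10 and rpl21, and 42 did not. The filter keeps genes with enough reads in at least 2 libraries, the size of a group, from whichever groups. The tested genes therefore do not stand for the others.

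Levels per length differed by more than an order of magnitude between genes that make parts of the same machines. By the authors' deposited TPM (scaled for gene length and library size), tufA had a mean of 32.4 TPM over the 6 libraries and ranked 2 among the 125 plastid genes. The next members were rps10 (16.6 TPM, rank 4), rpl21 (14.9 TPM, rank 5) and rpl27 (12.0 TPM, rank 6), which encode ribosomal proteins S10, L21 and L27. By contrast, rpoA stood at 1.34 TPM, and rpoB, rpoC2 and rpoC1 at 0.269, 0.268 and 0.218 TPM. The polymerase genes thus had a median of 0.212 TPM in the knockout libraries and 0.392 TPM in WT. The median rpl gene stood at 0.262 TPM in the knockout libraries and 0.411 TPM in WT. For the rps genes the medians were 1.17 TPM in the knockout libraries and 1.44 TPM in WT. Most of these medians rest on genes with a handful of reads.

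Transcripts of the plastid RNA polymerase had lower summed levels in both knockout lines than in WT. The 4 rpo genes together had 19 and 27 reads for line 1, 18 and 30 for line 2, and 52 and 55 for WT. All 4 knockout libraries lay below both WT libraries. The sum was 1.54 ± 0.34 CPM in line 1, 1.68 ± 0.59 CPM in line 2 and 3.38 ± 0.30 CPM in WT (SD, n = 2 each). For both lines together it was 1.61 ± 0.40 CPM (SD, n = 4), a log2 ratio to WT of -1.07. This ratio is a description with no test, because the genes were grouped with earlier results of these data known. Against plastid reads, the rpo genes took 1.38 and 1.11% for line 1, 1.13 and 1.87% for line 2, and 2.69 and 2.98% for WT. Without psbA in the total, the shares were 1.81 and 2.24% for line 1, 1.81 and 2.64% for line 2, and 3.43 and 3.77% for WT. On either scale no knockout library reached WT. For shares of all plastid reads, exact 95% binomial intervals ran from 0.668 to 2.65% over the knockout libraries and from 2.01 to 3.86% over the WT libraries, so they overlapped at their edges. These intervals cover counting error only, and reads without molecular identifiers are not independent molecules.

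**Figure D1:**
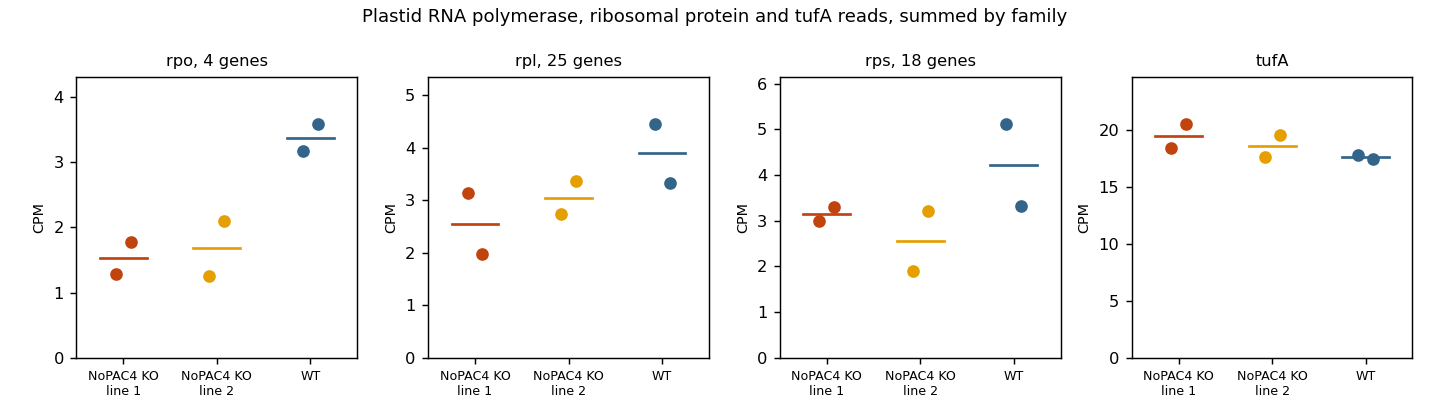
Summed reads of each family in CPM (vertical axis, from 0) for the 2 libraries (points) of each group, with the group mean as a line. The rpo sums of the 4 knockout libraries (1.26 to 2.10 CPM) lay below both WT libraries (3.17 and 3.59 CPM), while the rpl values overlapped and tufA stood between 17.4 and 20.5 CPM everywhere.

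The alpha subunit gene rpoA had the smallest p of the 6 tested genes. It had 7 and 11 reads for line 1, 6 and 8 for line 2, and 23 and 23 for WT. Without the WT libraries it would not have had enough reads for the filter. Its place among the tested genes was therefore not independent of its high level in WT. Every knockout library lay below both WT libraries, and the 2 lines overlapped each other. In CPM, rpoA averaged 0.545 ± 0.132 in the knockout libraries (SD, n = 4) and 1.45 ± 0.07 in WT (SD, n = 2). The log2 change was -1.41 ± 0.38 (SE), and it did not pass (edgeR adjusted p = 0.132 over 9712 genes, unadjusted p = 0.00825). By line it was -1.26 ± 0.44 in line 1 (SE, edgeR adjusted p = 0.283) and -1.55 ± 0.46 in line 2 (SE, edgeR adjusted p = 0.233). Between the lines, the difference of line 1 over line 2 was 0.29 ± 0.53 (SE, edgeR adjusted p = 0.926). Exact 95% Poisson intervals of the counts began at 14.6 reads in both WT libraries. They ended at 14.4 and 19.7 reads for line 1 and at 13.1 and 15.8 reads for line 2. These bounds are raw reads, not scaled to library size, and the WT libraries were the deepest. They therefore do not show which knockout libraries lay apart from WT by counting error.

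The other polymerase genes had lower means in the knockout lines but were less even. For rpoC2, 5 and 12 reads were found for line 1, 6 and 10 for line 2, and 9 and 13 for WT. Its groups overlapped, and the log2 change was -0.30 ± 0.53 (SE, edgeR adjusted p = 0.846). For rpoB, which failed the filter, the counts were 3 and 2 reads for line 1, 3 and 9 for line 2, and 9 and 18 for WT. Line 2 replicate 2 lay above WT replicate 1 in CPM, and the remaining 3 were lower than either WT library. Tested with no filter, its log2 change was -1.66 ± 0.64 (SE), with an edgeR adjusted p = 0.319. Without WT replicate 1 it was called in line 1 (-2.75 ± 0.94, SE, edgeR adjusted p = 0.0495), the only call of any of the 48 genes in the alternatives run. In that fit 3153 genes were called in line 1, and the lone WT library was assumed to vary like the other groups. For rpoC1, 4 and 2 reads for line 1, 3 and 3 for line 2, and 11 and 1 for WT leave the WT libraries on either side of all knockout libraries. Without rpoA, the 3 genes summed to 1.06 ± 0.34 CPM across the 4 knockout libraries and 1.93 ± 0.23 CPM across the 2 WT libraries (SD), a log2 ratio of -0.86. The sum was thus lower without rpoA too, but it was added after the values were seen and was not tested. Of the 3 genes, rpoB differed most in mean CPM (0.294 in the knockout libraries, 0.863 in WT). In each of the 3, at least 1 knockout library lay above a WT library. By reads, rpoA held 34.0% of rpo reads in the knockout libraries and 43.0% in WT.

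Elongation factor Tu behaved otherwise, with similar counts in every library. There were 270 and 312 tufA reads for line 1, 252 and 278 for line 2, and 291 and 267 for WT. The groups overlapped at 19 ± 1.3 CPM across the 4 knockout libraries and 17.6 ± 0.2 CPM across the 2 WT libraries (SD). The log2 change was 0.11 ± 0.12 for both lines (SE, edgeR adjusted p = 0.743), 0.15 ± 0.14 for line 1 and 0.08 ± 0.14 for line 2 (SE, edgeR adjusted p = 0.649 and 0.965). With the most reads of the set, tufA is the member with the smallest relative counting error. Of all plastid reads, tufA took 19.6 and 12.8% for line 1, 15.8 and 17.3% for line 2, and 15 and 14.5% for WT, with line 1 replicate 2, the library high in psbA, the lowest. As a share of plastid reads other than psbA, tufA took 25.7 and 25.9% for line 1, 25.3 and 24.5% for line 2, and 19.2 and 18.3% for WT. On that scale all knockout libraries lay above both WT libraries, and the other plastid genes without psbA summed to 48.7 ± 3.2 CPM over the 4 knockout libraries and 64.7 ± 4.0 CPM over the 2 WT libraries (SD).

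Within a library, the ratio of rpoA to tufA does not depend on depth or scaling. It was 2.59 and 3.53 rpoA reads per 100 tufA reads for line 1, 2.38 and 2.88 for line 2, and 7.90 and 8.61 for WT. Both lines together averaged 2.84 ± 0.50 (SD, n = 4) and WT 8.26 ± 0.50 (SD, n = 2), and the groups did not overlap. The one-sided exact permutation p was 0.0667 over the 15 arrangements of 4 libraries against 2, and the two-sided exact p, taken as the one-sided p times 2, was 0.133. These are the smallest values that this test can give here.

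**Figure D2:**
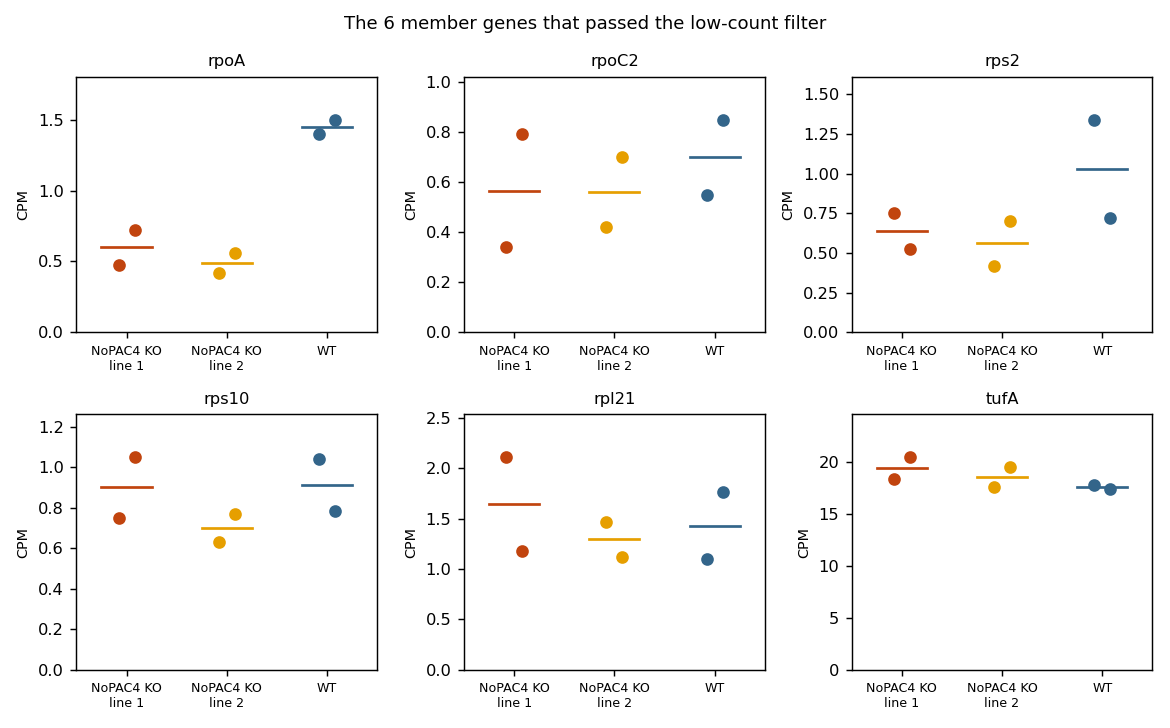
CPM (vertical axes, from 0) of the 6 genes that passed the low-count filter, for the 2 libraries (points) of each group, with group means as lines. In rpoA the knockout libraries (0.420 to 0.724 CPM) lay apart from WT (1.4 and 1.5 CPM), and in the other 5 genes the groups overlapped.

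Summed by family, the ribosomal protein genes had log2 ratios closer to 0 than the polymerase genes, a difference that was not tested and that was not seen for rpl once its most-read gene and that of rpo were left out (-0.86 for rpo, -0.89 for rpl). The 25 rpl genes had 46 and 30 reads for line 1, 39 and 48 for line 2, and 73 and 51 for WT. They summed to 2.80 ± 0.61 CPM across the 4 knockout libraries and 3.89 ± 0.79 CPM across the 2 WT libraries (SD), a log2 ratio of -0.48, and line 2 replicate 2 (3.36 CPM) lay just above WT replicate 2 (3.33 CPM). The 18 rps genes had 44 and 50 reads for line 1, 27 and 46 for line 2, and 84 and 51 for WT. They summed to 2.85 ± 0.65 CPM across the 4 knockout libraries and 4.23 ± 1.27 CPM across the 2 WT libraries (SD), a log2 ratio of -0.57. All knockout libraries lay below both WT libraries, but the highest (3.29 CPM) nearly equalled WT replicate 2 (3.33 CPM). Much of either ratio rested on WT replicate 1, without which the rpl sum stood at -0.25 and the rps sum at -0.23. Against plastid reads other than psbA, the log2 ratios were -0.15 for rpl, -0.26 for rps and -0.76 for rpo.

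Among large-subunit genes, rpl21 held 45.6% of the rpl reads. Its product L21 is a protein of the large subunit. It had 31 and 18 reads for line 1, 21 and 16 for line 2, and 18 and 27 for WT. The groups overlapped fully, and the log2 change was 0.03 ± 0.40 (SE, edgeR adjusted p = 0.979). Its neighbour rpl27, for L27 of the large subunit, had 7 and 5 reads for line 1, 7 and 7 for line 2, and 18 and 6 for WT. Only WT replicate 1 stood out there. Without rpl21 the rpl genes summed to 1.33 ± 0.64 CPM across the 4 knockout libraries and 2.46 ± 1.26 CPM across the 2 WT libraries (SD), a log2 ratio of -0.89, and of -0.24 without WT replicate 1.

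Among small-subunit genes, rps10 and rps2 passed the filter. The product of rps10 is ribosomal protein S10, and its gene had 11 and 16 reads for line 1, 9 and 11 for line 2, and 17 and 12 for WT. The log2 change was -0.20 ± 0.39 (SE, edgeR adjusted p = 0.863), with overlapping groups. The gene rps2, for S2, had 11 and 8 reads for line 1, 6 and 10 for line 2, and 22 and 11 for WT. Its log2 change was -0.79 ± 0.47 (SE, edgeR adjusted p = 0.533), and -0.26 without WT replicate 1. For rps7, for S7, which failed the filter with 35 reads in all, the counts were 2 and 9 reads for line 1, 4 and 2 for line 2, and 12 and 6 for WT. Line 1 replicate 2 lay between the WT libraries, and the remaining 3 were lower than either. Without rps10 and rps2 the rps genes summed to 1.45 ± 0.42 CPM across the 4 knockout libraries and 2.29 ± 0.65 CPM across the 2 WT libraries (SD), a log2 ratio of -0.66, and of -0.34 without WT replicate 1. The 39 genes under 30 reads, rpoC1 among them, had at most 26 reads over all libraries, and 29 of the 39 had any.

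**Figure D3:**
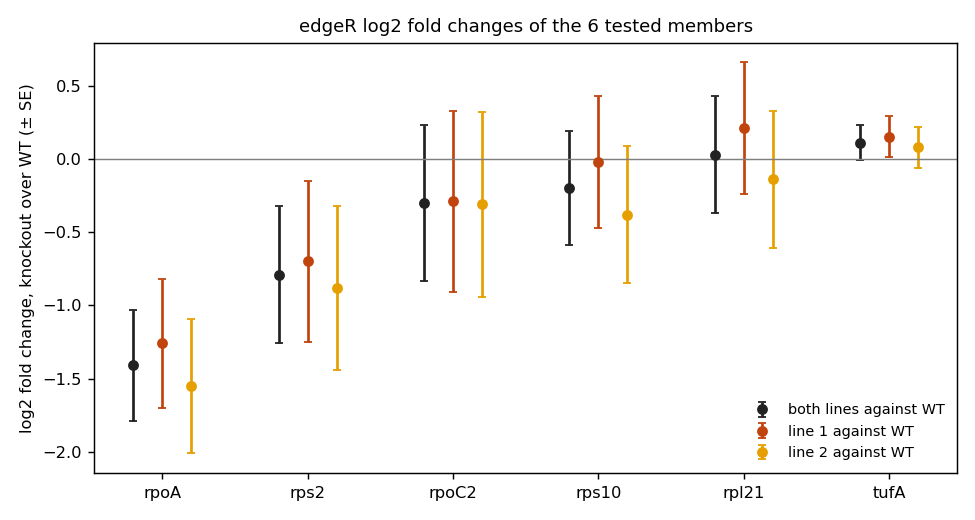
Log2 fold changes of the 6 tested genes (points, vertical axis) with their SE (bars) from edgeR, for both lines together, line 1 and line 2, each over WT. Values ran from -1.55 for rpoA in line 2 to 0.21 for rpl21 in line 1, and 0 of them passed the test.

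No gene of the set was called in any of the 4 comparisons made. For both lines against WT, edgeR quasi-likelihood called 0 of the 6 tested genes, where 0.165% of all tested genes were called. DESeq2 and limma on log2 TPM also called 0, and each of the 3 tools gave 1 gene, rpoA, an unadjusted p below 0.05. Lower values at that unadjusted level were found for 9.69% of all tested genes, so 1 of 6 (16.7%) is no result about the set. In line 1 against WT, 0.134% of all tested genes were called. In line 2 against WT, 0.0412% were called. Lower values at an unadjusted p below 0.05 were found for 8.35% of all tested genes in line 1 and 8.66% in line 2. In each of these comparisons edgeR quasi-likelihood and limma gave rpoA alone an unadjusted p below 0.05. DESeq2 gave 0 members in line 1 and 1 in line 2 such a p. Between the lines, 0% of all tested genes were called by edgeR, and 0 members had an unadjusted p below 0.05 with any of the 3 tools. Over the 6 tested genes the median log2 change was -0.25, with 4 below and 2 above 0, against a median of 0.01 over all tested genes. The other 19 tested plastid genes had a median of -0.68, with 14 below and 5 above 0.

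Counted over the genes with reads, lower means in the knockout libraries were more frequent than higher means, at 25 and 13 of 38. By family, 4 of 4 rpo genes, 10 of 15 rps genes and 11 of 18 rpl genes had the lower mean. The share over all genes was not counted, and some of these means rest on 1 or 2 reads. These counts are therefore no result about the set. All 4 knockout libraries lay below both WT libraries in 6 of the 38 (15.8%), among them rpoA, rpl2, rpl4 and rpl6, named after their values were seen. Over all genes with at least 1 read that pattern was found in 12.4%, so the share of the set is near the background. Leaving out the tested genes, it was 5 of 32 members (15.6%), against 6.91% of all genes with reads at such low levels. Those genes were limited by an upper bound on mean CPM alone and not matched by level, and the contrast was not tested. The reverse pattern was found in 2 of the 38 genes (5.26%), rps9 and rpl13, against 10.3% of all genes with at least 1 read. In rpl13 it rests on library size alone in 3 libraries, with 1, 1, 1 and 6 reads in the knockout libraries and 1 read in each WT library. The gene rpl6 had 1 read in each WT library and 0 elsewhere, so its place in the first group says little.

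Genes of the set also lay next to each other, a feature that the choice by name did not use. In the order of the RefSeq plastid record of assembly ASM5162214v2, 27 of the 48 genes formed a run from rps10 to rpl3 with only secY, for a protein translocase subunit, between them. It holds tufA, rpoA, 11 rps and 14 rpl genes, and 2016 of the 2460 reads. The order resembles that of the large ribosomal protein gene clusters known from bacteria. No source gives the build of the deposited tables, so only the order of names was used.

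Along this run, the genes on the 2 sides of rpoA differed in how they compared with WT. The split was made after the values were seen and has no test. From rps10 to rpl13, leaving tufA out, 6 genes had 19 and 33 reads for line 1, 17 and 29 for line 2, and 33 and 20 for WT. These groups overlapped, at 1.67 ± 0.50 CPM across the 4 knockout libraries and 1.66 ± 0.50 CPM across the 2 WT libraries (SD). The log2 ratio was 0.01, and it ran from -0.29 to 0.36 when single libraries were left out. On the other side of rpoA, as far as rpl3, 19 genes had 6 and 11 reads for line 1, 6 and 17 for line 2, and 49 and 28 for WT. All 4 knockout libraries lay below both WT libraries, at 0.686 ± 0.366 CPM across the 4 knockout libraries and 2.41 ± 0.82 CPM across the 2 WT libraries (SD). The log2 ratio was -1.81, from -2.22 to -1.42 when single libraries were left out, and -1.52 against plastid reads other than psbA.

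Among the genes on that side, each with few reads, rpl2 and rpl4 were chosen for naming after their values were seen. The gene rpl2, for L2, a protein close to the catalytic centre of the ribosome, had 1 and 1 reads for line 1, 2 and 2 for line 2, and 9 and 7 for WT. The gene rpl4, for L4 at the exit tunnel, had 0 and 0 reads for line 1, 0 and 1 for line 2, and 8 and 3 for WT. In both genes every knockout library lay below both WT libraries. Tested without the low-count filter, rpl2 had a log2 change of -2.28 ± 0.65 (SE) and rpl4 of -4.23 ± 1.32 (SE), and neither passed (edgeR adjusted p = 0.160 for rpl2 and 0.223 for rpl4). The value of rpl4 depends on the prior count, as line 1 had 0 reads. By contrast, rps9 on the first side had 3 and 3 reads for line 1, 3 and 10 for line 2, and 2 and 1 for WT.

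Of the genes that border or interrupt the run, secY and petF had too few reads to show a pattern. Inside it, secY had 3 and 5 reads for line 1, 4 and 2 for line 2, and 1 and 5 for WT, with overlapping groups. Next to rpl3 lies dnaK, for the plastid Hsp70 chaperone, with 125 and 110 reads for line 1, 59 and 114 for line 2, and 286 and 161 for WT. All knockout libraries lay below both WT libraries in dnaK. Its log2 change was -1.02 ± 0.30 (SE, edgeR adjusted p = 0.179). Next to rps10 lies petF, for ferredoxin, with 0 to 4 reads in every library.

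**Figure D4:**
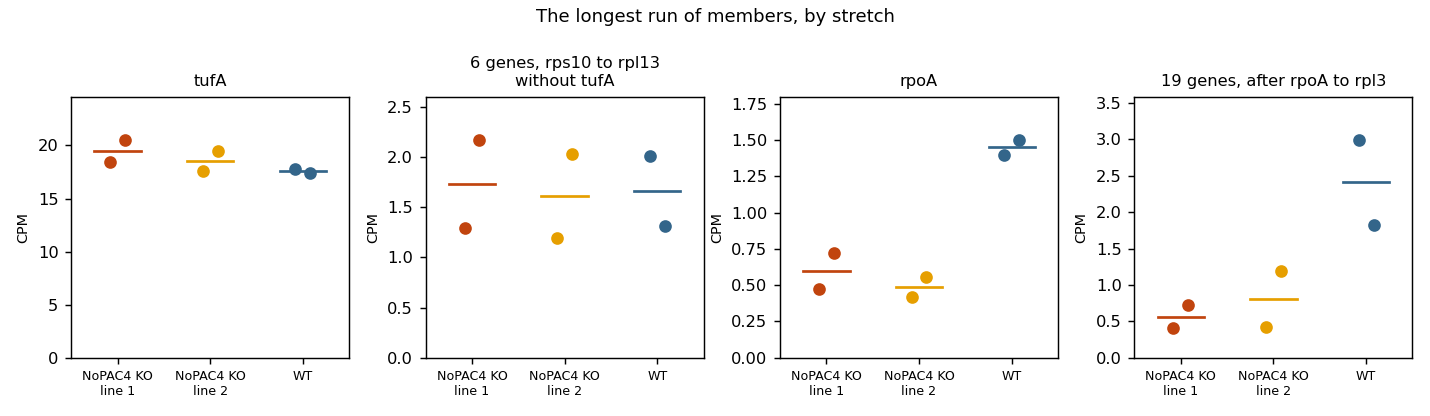
CPM (vertical axes, from 0) for 4 stretches of the run, with the 2 libraries of each group as points and group means as lines. Knockout libraries lay below both WT libraries in rpoA and in the 19 genes from there to rpl3 (0.409 to 1.19 against 1.83 and 2.99 CPM), and overlapped WT in tufA and in the 6 genes before rpoA.

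The next run joins 3 polymerase genes with ribosomal protein genes, in the order rps2, rpoC2, rpoC1, rpoB, rps20, rpl33 and rps18. Its 7 genes had 24 and 25 reads for line 1, 19 and 32 for line 2, and 53 and 44 for WT. All knockout libraries lay below both WT libraries, at 1.71 ± 0.38 CPM across the 4 knockout libraries and 3.05 ± 0.25 CPM across the 2 WT libraries (SD), a log2 ratio of -0.83. The pair rpl27 and rpl21 had 38 and 23 reads for line 1, 28 and 23 for line 2, and 36 and 33 for WT, a log2 ratio of -0.18 with overlapping libraries. In the other direction stood rpl11, rpl1 and rpl12, with 3 and 2 reads for line 1, 6 and 8 for line 2, and 4 and 0 for WT. Their log2 ratio was 1.43 with overlapping libraries. The 23 reads in all are too few to compare, and rpl2 and rpl4 had no more, at 22 and 12. The remaining runs and single genes had at most 19 reads in all.

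The whole set took a similar part of each library, most of it tufA. All 48 genes had 379 and 419 reads for line 1, 336 and 402 for line 2, and 500 and 424 for WT. They summed to 26.3 ± 2.1 CPM across the 4 knockout libraries and 29.1 ± 2.0 CPM across the 2 WT libraries (SD), with overlapping groups and a log2 ratio of -0.15 that turned to 0.17 against plastid reads other than psbA. Without tufA, the other 47 genes had 109 and 107 reads for line 1, 84 and 124 for line 2, and 209 and 157 for WT. All knockout libraries lay below both WT libraries, at 7.26 ± 1.15 CPM across the 4 knockout libraries and 11.5 ± 1.8 CPM across the 2 WT libraries (SD). The log2 ratio was -0.66, and it was -0.34 as a sum of deposited TPM and -0.35 against plastid reads other than psbA.

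Other plastid gene groups also had summed log2 ratios below 0. Photosystem genes without psbA stood at -0.50, ATP synthase genes at -0.53, chaperone, protease and secretion genes at -0.60, cytochrome b6f and related genes at -0.49, chlorophyll synthesis genes at -0.39, Rubisco genes with cbbX at -0.24 and the other 17 plastid genes at -0.14. The rpl and rps genes together stood at -0.52. All knockout libraries lay below both WT libraries in the photosystem, ATP synthase and chaperone groups too, so this pattern was not particular to the set. It was also found for the summed plastid genes outside the set without psbA (log2 ratio -0.41). In the cytochrome, chlorophyll synthesis, Rubisco and remaining groups the libraries overlapped. Differences between these groups were not tested, so the value of -1.07 for the rpo genes is not shown to be particular to them. A list of other plastid gene expression factors, such as initiation factors, met 0 gene IDs.

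The mitochondrial genome gives a counterpart, with 16 ribosomal protein genes of its own. They had 24 and 40 reads for line 1, 28 and 23 for line 2, and 26 and 22 for WT. They summed to 1.96 ± 0.48 CPM across the 4 knockout libraries and 1.51 ± 0.11 CPM across the 2 WT libraries (SD), a log2 ratio of 0.37. Every knockout library lay above both WT libraries in this sum, but line 2 replicate 2 (1.61 CPM) nearly equalled WT replicate 1 (1.59 CPM). All 35 mitochondrial genes together stood at -0.01, and the difference from the plastid genes was not tested.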

How the data were processed

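The authors deposited a table of expected counts (estimated counts, 20.1% of values not whole) and a table of TPM for 10493 genes in 6 libraries. The tools named in the submitters' processing notes are STAR and edgeR. The counter, versions, genome build and annotation are not given in the sources used here. All counts of the 48 genes were whole. Some genes of the set are not reported singly here. The members and gene lists were chosen with earlier results of these data known. Member genes were taken by the start of their ID, and groups and replicate numbers from the sample titles (the deposited columns number some libraries of line 2 and WT differently).

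Expected counts were rounded and fitted over the whole table with edgeR 4.0.16 in R 4.3.3 (quasi-likelihood, robust, TMM factors, default group filter, 9712 genes kept, 3 residual degrees of freedom). The threshold for a call was 0.05 on Benjamini-Hochberg adjusted p-values over all tested genes. SE come from the test statistic. CPM use the TMM-scaled totals. Sums over genes are log2 ratios of mean CPM, with no test. Reads of 0 allow up to 3 reads, and intervals are exact at 95%, for counting error only. Text names every tested member, members with at least 30 reads, and others where said. A run allowed 1 other gene between members. Alternatives used DESeq2 1.42.0, limma 3.58.1 on log2(TPM + 1) and log2(TPM + 0.1), other scalings, no filter, 2 groups, a replicate block and single libraries left out. The code was tested on simulated data in which only well-read genes were changed. That simulation does not show how the tests perform at the low counts of most members.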

Additional observations from a re-analysis of the deposited data

How the results depend on the processing

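The number of members called stayed at 0 in all alternatives for both lines, for line 2 and between the lines, and was 0 to 1 for line 1 when single libraries were left out (rpoB without WT replicate 1). The log2 change of rpoA ran from -1.58 to -0.81 (edgeR, DESeq2 or limma adjusted p from 0.0894 to 0.472) and that of tufA from 0.06 to 0.15 over 14 alternatives. The sum of all members moved to 0.17 when scaled to plastid reads other than psbA. With single libraries left out, the sums ran from -0.69 to -0.25 for rpl, -0.87 to -0.23 for rps, -1.23 to -0.98 for rpo and -0.24 to -0.08 for all members.

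Values near 0 changed sign. Leaving out single libraries, rpl21 ran from -0.27 to 0.39 for both lines, -0.27 to 0.56 in line 1, -0.44 to 0.22 in line 2 and -0.13 to 0.69 between the lines. The same ranges for rpoC2 were -0.68 to 0.02, -1.03 to 0.18, -0.72 to 0.01 and -0.71 to 0.49. For rps10 they were -0.40 to 0.02 for both lines and -0.30 to 0.20 in line 1, and limma gave 0.04 in line 1 with either constant. Between the lines, rps2 ran from -0.15 to 0.58, rpoA from -0.05 to 0.56 and tufA from -0.02 to 0.15, and rpoC2 stood at 0 with the replicate block, 0 with limma on log2(TPM + 1) and -0.03 on log2(TPM + 0.1).

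Counts over all genes moved more. For both lines, 16 genes were called, 557 by DESeq2, 233 without the filter, 318 with 2 groups and 2 to 2848 without single libraries. For line 1 it was 13, 403 by DESeq2 and 2 to 3153 without single libraries. For line 2 it was 4, 374 by DESeq2, 9 by limma on log2(TPM + 0.1) and 1 to 1549 without single libraries. Between the lines it was 0, 17 by DESeq2 and 0 to 12. Deviations from group means of libraries with the same title number correlated at 0.101 (line 1 and line 2), 0.035 (line 1 and WT) and 0.326 (line 2 and WT). Pairing by the numbers of the deposited columns was not tested, so whether libraries shared a batch is not known. With the replicate block, 337 genes were called for both lines and 20 for line 1, with 0 members and rpoA at -1.42 (edgeR adjusted p = 0.141). Causes of these shifts were not tested. Sums without single genes and along runs were added after seeing the data. With 39 of the 48 genes under 30 reads in all, counting error limits the precision of most members.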
